A study of Saccharomyces cerevisiae with 36 samples.

Results

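The genes described here are the hexose transporter genes *HXT1* (YHR094C), *HXT2* (YMR011W), *HXT3* (YDR345C), *HXT4* (YHR092C), *HXT5* (YHR096C), *HXT6* (YDR343C) and *HXT7* (YDR342C) and the glucose sensor genes *RGT2* (YDL138W) and *SNF3* (YDL194W) of budding yeast, 9 of the 6403 genes in the count table. They were chosen by name as a family because, in earlier results from these same samples, the heat induction of *HXT5* was strongly weakened by a previous heat shock. The values of *HXT5* in the heat and memory comparisons are therefore a description without a test, whereas the other 8 genes were tested. All 9 genes were measured in every sample and passed the filter on low counts, while 7 of the 9, all but *HXT2* and *HXT4*, had a row in the authors' table of normalised counts.

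Yeast takes up glucose by facilitated diffusion through Hxt proteins that differ in their affinity for the sugar. Hxt1 and Hxt3 are low-affinity carriers used when glucose is plentiful, Hxt2, Hxt4, Hxt6 and Hxt7 have higher affinity, and Hxt5 is made in slow-growing or stressed cells rather than in answer to glucose itself. Snf3 and Rgt2 resemble transporters but act as receptors at the plasma membrane. When they bind glucose, the corepressors Mth1 and Std1 are degraded and the repressor Rgt1 leaves *HXT* promoters, while the repressor Mig1 holds down genes of high-affinity carriers when glucose is high.

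Stranded mRNA libraries of 36 samples in 12 groups of 3 replicates were sequenced. All cells were haploid BY4741 (*MATa his3 leu2 met15 ura3*) growing exponentially in rich glucose medium (YPD). WT cells carried no other change, and in *mip6Δ*, taken from the deletion collection, a *KANMX4* cassette replaced *MIP6*, which encodes an RNA-binding protein. Each culture was divided between a memory flask, given a heat shock of 20 min and then 60 min of recovery, and a no-memory flask with no earlier heat shock, before both flasks met the final heat shock, made by adding medium at 51 °C. Samples were taken just before it (0 min) and after 15 and 20 min of it. The samples at 15 and 20 min had thus also received added medium. In comparisons with 0 min, heat and the added medium cannot be told apart. These cultures were whole populations, so a change in all cells and a change in some of the cells cannot be told apart. The labels do not say whether replicates were separate cultures on separate days, so the p-values measure the spread between these samples only.

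Totals ranged from 28270651 to 42233578 counts per sample. *MIP6* had 134 to 626 counts in the 18 WT samples and 0 in the 18 *mip6Δ* samples. The labels of a single library, *mip6Δ* memory 0 min replicate 2, disagreed on its time, its title giving 0 min and another field 20 min, and it was kept at 0 min. *HSP26*, a small heat shock protein gene, was at 10.1 CPM (counts-per-million of the scaled library total) in that library, against 9.70 to 49.1 CPM over the 12 samples at 0 min and 3768 to 16060 CPM at 20 min. At 0 min WT replicate 1 stood apart in *HXT2* in both flasks, and in *HXT4*, *HXT6* and *HXT7* in the memory flask. The main results resting on these flasks are given with and without them.

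Most of the transporter genes lie in a pair of clusters. In the R64 assembly (equivalent to sacCer3), *HXT7*, *HXT6* and *HXT3* follow each other on chromosome IV, at chrIV:1154216-1155928, chrIV:1159608-1161320 and chrIV:1162957-1164660, all on the minus strand. *HXT4*, *HXT1* and *HXT5* lie on the minus strand of chromosome VIII, at chrVIII:287081-288811, chrVIII:290913-292625 and chrVIII:294669-296447. *HXT2* is alone at chrXIII:288079-289704, on the plus strand. The sensor genes lie far apart on the plus strand of chromosome IV, *RGT2* at chrIV:213351-215642 and *SNF3* at chrIV:111580-114234.

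*HXT6* and *HXT7* are near-identical copies. Their coding sequences, 1713 bases each, differed at 3 positions (T1632C, G1666A and T1677C, with the *HXT6* base first and positions counted from the first coding base), all within the stretch shown here from coding base 1622 to 1686, with the differing bases in capitals (RefSeq, R64, minus strand, chrIV:1159635-1159699 for *HXT6* and chrIV:1154243-1154307 for *HXT7*):
HXT6: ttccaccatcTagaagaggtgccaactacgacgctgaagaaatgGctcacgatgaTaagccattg
HXT7: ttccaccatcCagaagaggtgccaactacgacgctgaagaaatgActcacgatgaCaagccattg
Upstream of the start codon the copies are unlike, with 42% of 500 bases identical without gaps. How reads matching both copies were counted was not stated. The *HXT7* count was 1.03 to 1.15 times the *HXT6* count in all 36 samples (median 1.10), so their separate values are uncertain and their sum is given beside them. The next most similar pair of coding sequences, *HXT4* and *HXT7*, had 82.8% identity, as did *HXT4* and *HXT6*.

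The promoters of these genes were searched over 500 bases upstream of the start codon, on both strands, for the stress response element AGGGG bound by Msn2 and Msn4, the Rgt1 motif CGGANNA, the Mig1 core GCGGGG or GTGGGG, and the heat shock element bound by Hsf1 (alternating TTC, GAA and TTC units, each 2 bases apart). Each capital in the following stretches is a base of such a match, which is a description of letters and not of binding. The promoter of *HXT5* held 2 stress response elements and 1 Rgt1 motif, shown from 480 to 280 bases upstream (chrVIII:296727-296927, minus strand):
HXT5: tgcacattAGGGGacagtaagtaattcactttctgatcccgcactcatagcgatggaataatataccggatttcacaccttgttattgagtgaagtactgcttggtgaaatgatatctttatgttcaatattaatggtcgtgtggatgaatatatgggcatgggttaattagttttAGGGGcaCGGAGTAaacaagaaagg
The promoter of *HXT3* held 5 Rgt1 motifs and that of *HXT1* held 4, of which 3 are shown (chrIV:1164965-1165110 and chrVIII:293010-293115, minus strand):
HXT3: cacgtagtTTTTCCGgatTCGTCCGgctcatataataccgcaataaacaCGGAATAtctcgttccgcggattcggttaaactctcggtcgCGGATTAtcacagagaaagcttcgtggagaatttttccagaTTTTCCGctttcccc
HXT1: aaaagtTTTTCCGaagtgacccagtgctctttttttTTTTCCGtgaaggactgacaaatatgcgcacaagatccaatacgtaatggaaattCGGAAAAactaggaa
In *HXT2* a Mig1 core lay between a pair of Rgt1 motifs (chrXIII:287639-287699, plus strand), and *HXT7* combined 2 stress response elements with a Mig1 core (chrIV:1156158-1156313, minus strand):
HXT2: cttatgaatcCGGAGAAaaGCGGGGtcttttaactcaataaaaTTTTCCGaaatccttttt
HXT7: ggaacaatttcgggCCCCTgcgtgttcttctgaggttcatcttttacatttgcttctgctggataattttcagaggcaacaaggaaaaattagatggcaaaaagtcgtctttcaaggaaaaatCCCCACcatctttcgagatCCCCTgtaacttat

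Over 6019 genes of the annotation, 42% had at least 1 Rgt1 motif in the same window, 0.548% had at least 4 and 0.133% had at least 5. At least 2 stress response elements occurred in 8.12% and at least 2 Mig1 cores in 1.5% of genes. *HXT2*, *HXT4* and *HXT6* each held 2 Mig1 cores, and *HXT1* and *RGT2* each held 1 stress response element. The Rgt1 motif was not matched in *RGT2*, *SNF3* or *HXT7*, and the heat shock element was not matched in any of the 9 windows, against 1.48% of all genes. No match says only that these letters are not in the window.

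**Figure D1:**
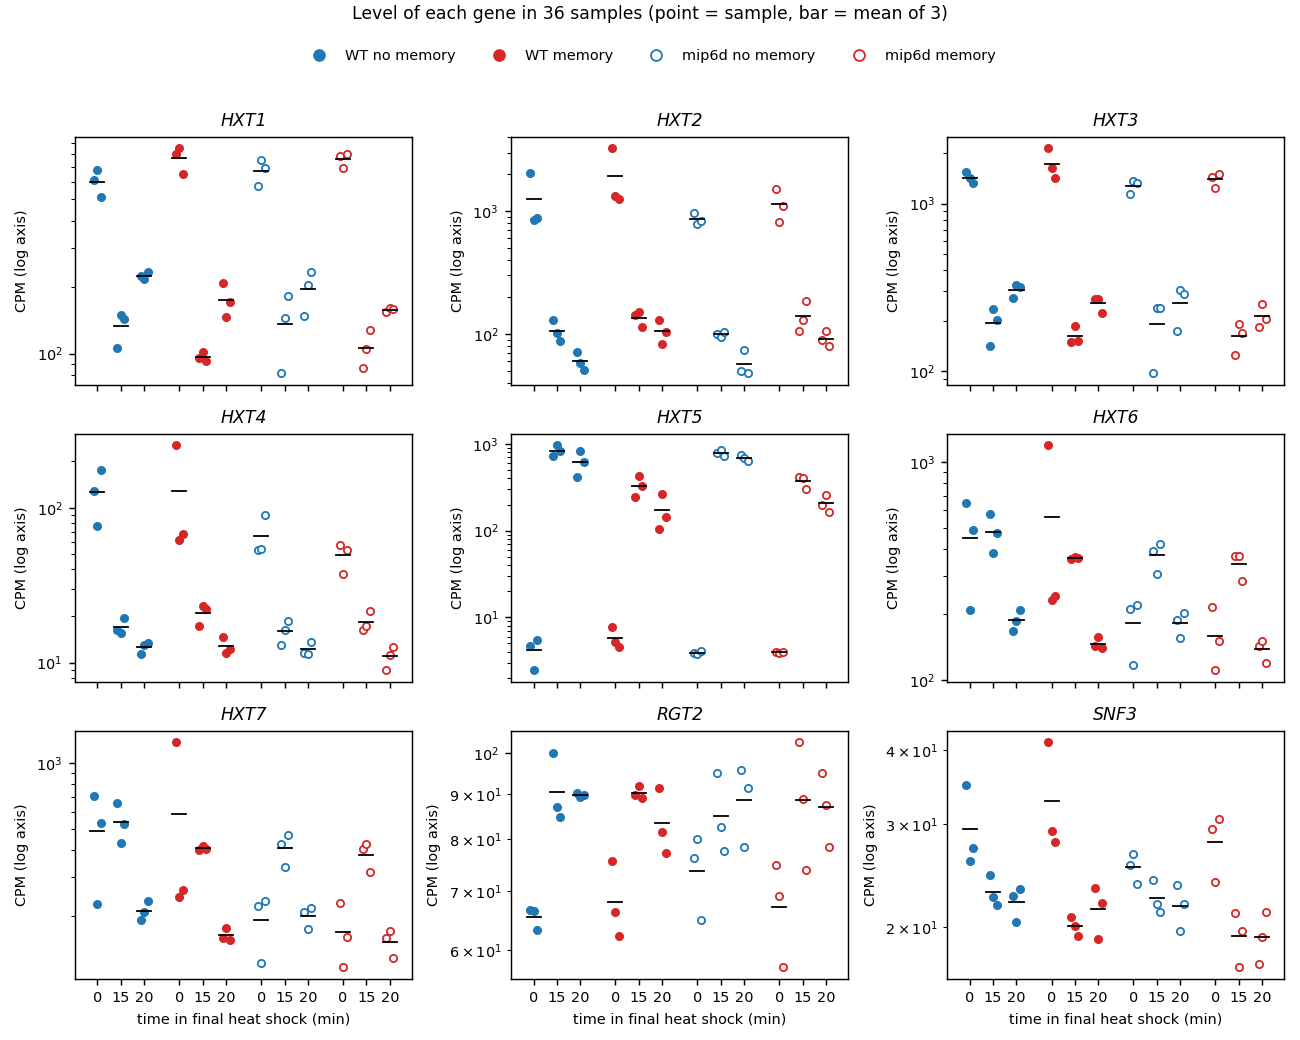
Level of each of the 9 genes in CPM (log axis) against the time in the final heat shock (0, 15 and 20 min), with a point for each of the 36 samples and a bar at the mean of 3. *HXT5* rises from under 8 CPM to over 100 CPM in every heated sample and is lower in memory (red) than in no-memory (blue) flasks, and *HXT1* to *HXT4* fall.

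*HXT5* is the carrier of slow-growing and stressed cells, and without memory it went from the least abundant of the 9 genes per length to the most abundant. In WT no-memory flasks it was at 4.65, 2.45 and 5.46 CPM at 0 min, at 719.4, 967.6 and 825.8 CPM at 15 min, and at 416.6, 831.3 and 615.0 CPM at 20 min. Over all 12 samples at 0 min the level lay between 2.45 and 7.69 CPM (72 to 242 counts), below every heated sample. The log2 fold change in WT without memory was 7.65 ± 0.37 (SE, n = 3) at 15 min, a 201-fold rise, and 7.22 ± 0.37 at 20 min. In *mip6Δ* without memory the values were 775.2, 848.5 and 732.9 CPM at 15 min and 736.8, 695.9 and 636.2 CPM at 20 min, from 3.79 to 4.10 CPM at 0 min, and the log2 fold changes were 7.64 ± 0.37 and 7.46 ± 0.37. Without memory the samples of both strains overlapped at 15 and at 20 min.

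With memory, *HXT5* was induced to a lower level, from starting levels that overlapped those without memory. WT memory flasks held 7.69, 5.14 and 4.58 CPM at 0 min, then 242.8, 424.5 and 324.5 CPM at 15 min and 103.1, 267.4 and 144.1 CPM at 20 min. Every memory sample lay below every no-memory sample of its strain at 15 and at 20 min, and not at 0 min. The mean WT memory level was 0.395 of the no-memory level at 15 min and 0.276 of it at 20 min. In *mip6Δ*, memory flasks reached 413.1, 409.5 and 299.7 CPM at 15 min and 196.5, 257.7 and 162.2 CPM at 20 min, which is 0.476 and 0.298 of the no-memory means. The memory response was smaller than the no-memory response by 1.82 ± 0.42 (log2, SE) at 15 min and 2.34 ± 0.42 at 20 min in WT, and by 1.08 ± 0.42 and 1.76 ± 0.43 in *mip6Δ*. The family was chosen on these differences. In the authors' normalised counts, WT means of *HXT5* at the successive times were 141.5, 27350 and 20140 without memory. The corresponding means after memory were 191.7, 10950 and 5598.

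The strain was not used in the choice, so *HXT5* was tested there. By edgeR's quasi-likelihood test with Benjamini-Hochberg adjustment over 6038 genes, no difference in *HXT5* between *mip6Δ* and WT passed an adjusted p of 0.05 at any time or condition (log2 differences from -0.56 to 0.26, with standard errors of 0.27 to 0.33). The memory response of *HXT5* was 0.73 ± 0.42 higher in *mip6Δ* than in WT at 15 min (edgeR adjusted p = 0.998) and 0.82 ± 0.42 higher at 20 min (adjusted p = 0.952). The effect of memory on the response differed between strains by 0.74 ± 0.60 at 15 min and 0.58 ± 0.60 at 20 min, also short of the threshold. These intervals are wide, and a miss of the threshold does not show that the strains were alike.

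*HXT1*, the low-affinity carrier of cells in plentiful glucose, fell in every comparison with 0 min. WT no-memory flasks held 610.8, 679.2 and 512.3 CPM at 0 min, 106.0, 149.6 and 143.1 CPM at 15 min and 224.5, 217.3 and 233.5 CPM at 20 min, so the times did not overlap and the lowest levels were at 15 min. The log2 fold change was -2.18 ± 0.21 at 15 min (edgeR adjusted p = 4.1e-10) and -1.42 ± 0.21 at 20 min (adjusted p = 7.3e-07). With memory, WT flasks held 803.0, 853.0 and 649.6 CPM at 0 min and then 95.5, 101.6 and 92.2 CPM at 15 min, a change of -2.99 ± 0.22. The *mip6Δ* changes at 15 min, also past the threshold, were -2.31 ± 0.21 without and -2.84 ± 0.22 with memory.

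*HXT3*, the other low-affinity carrier, moved in parallel, with a correlation to *HXT1* of 0.984 over the 36 samples on the log2(CPM + 1) scale, samples that share their times and conditions. It was at 1550, 1416 and 1324 CPM at 0 min in WT no-memory flasks, at 141.2, 234.6 and 202.3 CPM at 15 min, and at 273.3, 324.3 and 315.8 CPM at 20 min. The log2 fold change was -2.89 ± 0.26 at 15 min (edgeR adjusted p = 1.2e-10) and -2.23 ± 0.26 at 20 min. Over the other 3 combinations of strain and condition its changes ran from -2.32 to -3.42, each past the threshold.

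The higher-affinity carriers *HXT2* and *HXT4* fell too, and they were lower at 20 than at 15 min. *HXT2* was at 2057, 853.3 and 888.1 CPM at 0 min in WT no-memory flasks, at 129.1, 102.2 and 88.6 CPM at 15 min and at 71.1, 58.4 and 51.2 CPM at 20 min, with no overlap between the times. Its log2 fold change of -4.39 ± 0.36 at 20 min (edgeR adjusted p = 2.6e-11) was the largest fall among the 9 genes in that comparison, and without replicate 1 at 0 min it was -3.85 (edgeR adjusted p = 8.6e-11). At 15 min the change was -3.03 without that library, and in WT memory flasks, without memory 0 min replicate 1, it was -3.24 at 15 min and -3.62 at 20 min. *HXT4* was at 128.6, 75.8 and 174.4 CPM at 0 min, at 16.2, 15.6 and 19.4 CPM at 15 min and at 11.5, 13.1 and 13.3 CPM at 20 min. Its fall at 20 min was -3.32 ± 0.38 in WT (edgeR adjusted p = 9.4e-09) and -2.43 ± 0.37 in *mip6Δ* without memory (adjusted p = 1.0e-06).

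*HXT6* and *HXT7*, high-affinity carriers, took another course. In WT no-memory flasks their summed level was 1354, 434.4 and 1022 CPM at 0 min, 1241, 815.0 and 1000 CPM at 15 min and 357.8, 393.8 and 441.5 CPM at 20 min. The 0 and 15 min samples overlapped, and the sum changed by 0.12 ± 0.41 at 15 min (edgeR adjusted p = 0.80) and by -1.24 ± 0.41 at 20 min (adjusted p = 0.0097). In WT memory flasks the sum was 2446, 476.5 and 504.0 CPM at 0 min, 758.1, 785.5 and 769.0 CPM at 15 min and 301.7, 332.8 and 294.8 CPM at 20 min, so that replicate 1 lay above and the others below their 15 min levels. It changed by -0.57 ± 0.41 at 15 min (edgeR adjusted p = 0.23) and by -1.88 ± 0.42 at 20 min (adjusted p = 0.00037). In *mip6Δ* no-memory flasks the sum was 433.1, 238.1 and 454.8 CPM at 0 min and 816.7, 641.6 and 890.0 CPM at 15 min, without overlap. It rose by 1.06 ± 0.41 at 15 min (edgeR adjusted p = 0.022) and stood at 0.02 ± 0.41 at 20 min (adjusted p = 0.97). In *mip6Δ* memory flasks it rose by 1.14 ± 0.41 at 15 min (edgeR adjusted p = 0.016) and was -0.17 ± 0.41 from its start at 20 min. The single copies followed, with *HXT6* at 1.03 and *HXT7* at 1.09 in *mip6Δ* without memory at 15 min.

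These calls rest on few samples by edgeR's test. Without the library whose labels disagree, *mip6Δ* memory 0 min replicate 2, *HXT6* rose by 0.90 (edgeR adjusted p = 0.092) and *HXT7* by 0.97 (adjusted p = 0.069) with memory, so both calls were lost, and *HXT6* also lost its call without *mip6Δ* memory 0 min replicate 3 (1.07, adjusted p = 0.053). Without memory both copies lost the 15 min call when *mip6Δ* 0 min replicate 2 was left out (*HXT6* 0.79, edgeR adjusted p = 0.13, and *HXT7* 0.85, adjusted p = 0.10) or 15 min replicate 3 (0.93, adjusted p = 0.067, and 0.99, adjusted p = 0.052). Without WT no-memory 0 min replicate 1, the fall at 20 min in WT was -0.90 for *HXT6* (edgeR adjusted p = 0.073) and -0.85 for *HXT7* (adjusted p = 0.090). Without WT memory 0 min replicate 1, the change in WT memory flasks at 15 min turned from negative to positive, 0.62 for *HXT6* (edgeR adjusted p = 0.081) and 0.69 for *HXT7* (adjusted p = 0.057). At 20 min it was then -0.70 for *HXT6* (edgeR adjusted p = 0.047) and -0.63 for *HXT7* (adjusted p = 0.077).

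The changes of the sensors stayed under 1 on the log2 scale in every comparison with 0 min. *RGT2*, the sensor for high glucose, was at 66.6, 66.5 and 63.2 CPM at 0 min in WT no-memory flasks and at 100, 86.9 and 84.7 CPM at 15 min, a rise of 0.47 ± 0.11 (edgeR adjusted p = 0.00059) with no overlap. *SNF3*, the sensor for low glucose, was at 34.9, 25.9 and 27.3 CPM and then 24.6, 22.5 and 21.8 CPM, a fall of 0.35 on the log2 scale (SE 0.13, adjusted p = 0.018), a call lost when any of 3 libraries was left out, WT no-memory 0 min replicate 1 (-0.21, edgeR adjusted p = 0.18), 15 min replicate 2 (-0.32, adjusted p = 0.059) or 15 min replicate 3 (-0.30, adjusted p = 0.076). In WT memory flasks *RGT2* rose by 0.41 ± 0.11 and *SNF3* changed by -0.71 ± 0.13 at 15 min. In *mip6Δ* without memory neither sensor passed at 15 min, with 0.21 ± 0.11 for *RGT2* (edgeR adjusted p = 0.10) and -0.17 ± 0.13 for *SNF3* (adjusted p = 0.23), and both overlapped their 0 min levels. At 20 min *RGT2* passed there with 0.26 (edgeR adjusted p = 0.038), a call lost in 3 single-library omissions, and *SNF3* did not (-0.22, adjusted p = 0.14). In *mip6Δ* memory flasks at 15 min *RGT2* rose by 0.40 (edgeR adjusted p = 0.0026) and *SNF3* changed by -0.53 (adjusted p = 0.00077). Scaling by library size alone moved the median of all genes up by 0.04 to 0.20 in comparisons with 0 min. That shift is near the size of the smaller sensor changes.

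In all, 6 of the 8 tested genes passed an adjusted p of 0.05 in WT without memory at 15 min, where 71.9% of all genes did (35.9% higher and 36% lower), and 8 of 8 at 20 min, where 68.8% did. With memory the WT counts were 6 of 8 at 15 min (64.3% of all genes) and 8 of 8 at 20 min (59.0%). In *mip6Δ* they were 6 of 8 (74.4%) and 5 of 8 (72.7%) without memory, and 8 of 8 (68.3%) and 6 of 8 (64.7%) with memory. Most yeast genes changed in this heat shock, so these counts are no result about the family, and the sizes and directions above carry the description. Leaving out WT no-memory 0 min replicate 1 lowered the WT no-memory count at 20 min from 8 to 5, since *HXT6*, *HXT7* and *SNF3* lost their calls, and the 15 min count from 6 to 5. Leaving out WT memory 0 min replicate 1 lowered the WT memory count at 20 min from 8 to 7, since *HXT7* lost its call. With scaling by library size alone, the WT counts without memory were 5 at 15 min and 7 at 20 min. In *mip6Δ* without memory at 15 min the count was 7 with that scaling and 7 with the replicate number as a block.

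**Figure D2:**
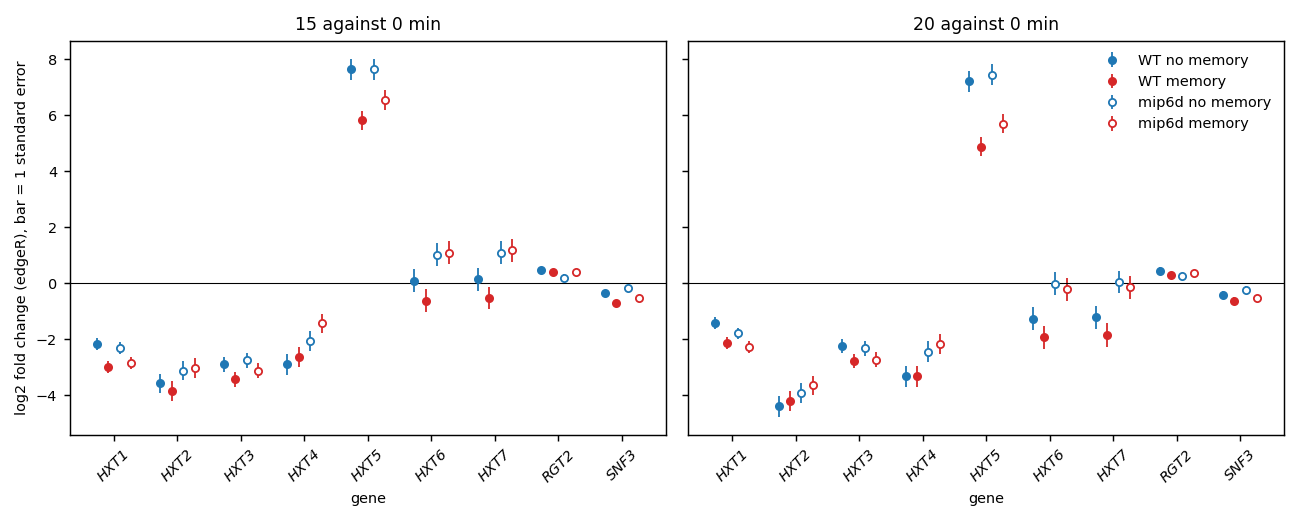
Log2 fold change against 0 min at 15 min (left) and 20 min (right) for each of the 9 genes, by edgeR, with bars of 1 standard error, in WT (filled) and *mip6Δ* (open), without memory (blue) and with memory (red). *HXT5* stands at 4.88 to 7.65, *HXT1* to *HXT4* at -1.42 to -4.39, and *HXT6* and *HXT7* on both sides of 0.

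Between 15 and 20 min the genes went in opposite directions. In the single combinations of strain and condition, edgeR called 0 of the 8 genes, with 5, 4, 4 and 4 of them at an unadjusted p under 0.05 in WT no memory, WT memory, *mip6Δ* no memory and *mip6Δ* memory, while DESeq2 called 3, 3, 0 and 2. With the replicate number as a block, edgeR called 3, 1, 0 and 0: in WT without memory *HXT1* (0.77, edgeR adjusted p = 0.022), *HXT6* (-1.31, adjusted p = 0.033) and *HXT7* (-1.31, adjusted p = 0.033), and in WT with memory *HXT1* (0.87, adjusted p = 0.035). Without the block edgeR called 1.28%, 0.132%, 0.199% and 0.182% of all genes. Averaged over the 4 combinations, a comparison added after seeing the data, 6 of the 8 genes passed, where 23.5% of all genes did. *HXT1* rose by 0.68 ± 0.10 (edgeR adjusted p = 3.5e-05) and *HXT3* by 0.53 ± 0.12 (adjusted p = 0.0025), both still far below 0 min. *HXT2* changed by -0.65 ± 0.16 (edgeR adjusted p = 0.0039) and *HXT4* by -0.57 ± 0.18 (adjusted p = 0.023), and the sum of *HXT6* and *HXT7* by -1.26 ± 0.21 (adjusted p = 0.00012). The low-affinity carriers thus rose while the higher-affinity carriers fell. *RGT2* (-0.02 ± 0.06) and *SNF3* (0.00 ± 0.07) did not pass. Leaving out single libraries or replicate numbers left 4 to 6 of the 8 genes called. *HXT6* and *HXT7* are near-identical copies, so their calls are not separate results. *HXT5*, given without a test, changed by -0.61 ± 0.14. The 15 and 20 min samples of a flask share their source.

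The other 8 genes were tested for an effect of memory, and they are not ranked against *HXT5*, which was chosen for that effect. In WT at 0, 15 and 20 min, 0, 0 and 1 of the 8 tested genes differed between memory and no-memory flasks, where 15.4%, 41.3% and 44.3% of all genes did. In *mip6Δ* edgeR called 0 of them at each time, against 15.4%, 39.1% and 45.2% of all genes, with 0, 0 and 1 at an unadjusted p under 0.05 (0, 1 and 1 in WT). By DESeq2 the *mip6Δ* counts were also 0, 0 and 0, and the WT counts 0, 1 and 1. Averaged over strains at 0 min, edgeR called 0 of the 8 genes, where 32.7% of all genes passed.

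*HXT2* was the gene that passed. At 20 min it was at 129.5, 82.5 and 103.1 CPM in WT memory flasks and at 71.1, 58.4 and 51.2 CPM in no-memory flasks, higher by 0.80 ± 0.32 (edgeR adjusted p = 0.042). In *mip6Δ* it was at 89.3, 105.0 and 80.7 CPM with memory and at 50.4, 73.7 and 47.9 CPM without (0.68 ± 0.32, edgeR adjusted p = 0.085). Memory samples lay above no-memory samples without overlap in both strains at 20 min. The mean of *HXT2* was already higher with memory at 0 min, with overlapping samples. It was 1945 against 1266 CPM in WT and 1144 against 863 CPM in *mip6Δ*. The heat response of *HXT2* did not pass between memory and no-memory flasks in either strain or in the mean of strains. Averaged over strains, a comparison added after seeing the data, the difference was 0.74 ± 0.23 (edgeR adjusted p = 0.0062), where 60.2% of all genes passed. The WT call was lost without WT memory 20 min replicate 1 (0.63, edgeR adjusted p = 0.18) or replicate 3 (0.82, adjusted p = 0.074), and without WT no-memory 20 min replicate 2 (0.78, adjusted p = 0.10) or replicate 3 (0.70, adjusted p = 0.14).

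*HXT1* was lower with memory during heat, a difference that passed the test with TMM scaling and not with scaling by library size alone. At 15 min WT memory flasks (95.5, 101.6 and 92.2 CPM) lay below no-memory flasks (106.0, 149.6 and 143.1 CPM), while the *mip6Δ* samples overlapped (85.8, 104.6 and 127.2 against 81.3, 144.5 and 181.8 CPM). The mean of strains was -0.41 ± 0.14 at 15 min (edgeR adjusted p = 0.016, with 55.9% of all genes past the threshold) and -0.34 ± 0.14 at 20 min (adjusted p = 0.044). With scaling by library size alone the 15 min difference was -0.18 (edgeR adjusted p = 0.27) and the 20 min difference -0.13 (adjusted p = 0.41). That scaling moved the median of all genes up by 0.16 to 0.25 in comparisons of memory with no memory, and relative to the median the values were -0.42 and -0.33. With TMM scaling, the 15 min call was lost without *mip6Δ* memory 15 min replicate 1 (-0.35, edgeR adjusted p = 0.052) or *mip6Δ* no-memory 15 min replicate 3 (-0.28, adjusted p = 0.088), and the 20 min call in 12 of 36 single-library omissions.

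For the heat response itself, the fold change in memory flasks was set against that in no-memory flasks, and 0 of the 8 genes passed in either strain, where 10.8% and 9.89% of all genes did at 15 and 20 min in WT and 9.61% and 13.5% in *mip6Δ*. *HXT1* had an unadjusted p under 0.05 in WT at both times, no gene did in *mip6Δ*, and DESeq2 called *HXT1* in WT at 15 min and no other gene, as did edgeR with the replicate block (-0.81, adjusted p = 0.038). Averaged over strains, added after seeing the data, the change of *HXT1* was more negative with memory, by -0.68 ± 0.20 at 15 min (edgeR adjusted p = 0.013) and -0.60 ± 0.20 at 20 min (adjusted p = 0.025), and so was that of *SNF3*, by -0.35 ± 0.13 at 15 min (adjusted p = 0.041). *HXT1* kept both calls in each of 36 single-library omissions, but not without replicate 2 (-0.70, edgeR adjusted p = 0.14, and -0.63, adjusted p = 0.17) or replicate 3 (-0.57, adjusted p = 0.12, and -0.48, adjusted p = 0.19). *SNF3* lost its call in 16 of these omissions, with adjusted p-values of 0.050 to 0.18, and with scaling by library size alone (-0.30, edgeR adjusted p = 0.11). These are 2 of 8 genes at 15 min, where 29.3% of all genes passed, and 1 of 8 at 20 min, where 31.5% did. In the average over strains the fall of *HXT1* was thus larger with memory, while edgeR without the block called it in neither strain alone. Mean *HXT1* at 0 min was higher with memory, at 768.5 against 600.8 CPM in WT and 758.9 against 673.6 CPM in *mip6Δ*. For *SNF3* it was 32.8 against 29.3 CPM in WT and 27.9 against 25.3 CPM in *mip6Δ*. The samples overlapped in each case, and the differences in response include these differences at the start.

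Before the final heat shock, *HXT4*, *HXT6* and *HXT7* had lower mean levels in *mip6Δ*, but the WT flasks were far apart. In no-memory flasks at 0 min *HXT6* was at 647.4, 208.8 and 489.3 CPM in WT and at 211.9, 117.1 and 220.4 CPM in *mip6Δ*. In memory flasks it was at 1198, 232.4 and 242.3 CPM in WT and at 215.4, 110.5 and 150.8 CPM in *mip6Δ*. WT replicate 1 was the highest flask in both conditions, but without memory replicate 3 lay nearer to it than to replicate 2. In *HXT2* replicate 1 was apart in both, at 2057 CPM without and 3256 CPM with memory. The other WT flasks held 853.3 to 1331 CPM of *HXT2*. By 15 min *HXT6* was at 358.6, 368.0 and 364.4 CPM in WT memory flasks, a far narrower spread than at 0 min.

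In single comparisons of *mip6Δ* with WT, edgeR called 0 of the 9 genes at each of 6 combinations of condition and time, where 0.0166% to 0.0331% of all genes, among them *MIP6*, passed. At an unadjusted p under 0.05 there were 3 of 9 at 0 min without memory, 4 of 9 at 0 min with memory and 0 of 9 in each comparison during heat. DESeq2 called *HXT4*, *HXT6* and *HXT7* in memory flasks at 0 min and none of the 9 elsewhere. Averaged over both conditions, again added after seeing the data, edgeR gave -1.15 ± 0.24 for *HXT4* (adjusted p = 0.015), -1.55 ± 0.29 for *HXT6* (adjusted p = 0.0094) and -1.57 ± 0.29 for *HXT7* (adjusted p = 0.0094), 3 of 9 genes where 0.696% of all genes passed. Flasks of a culture are not independent in this average, so its p-values are too small. *HXT6* and *HXT7*, near-identical copies, had a correlation of 0.999 over the 36 samples. Their calls are therefore not separate results, and these counts overstate how many genes differed. The flasks of the same strain and replicate number, taken as the flasks of a culture, were then averaged, giving 3 cultures against 3. The exact permutation test (two-sided) gave p = 0.20 for *HXT4* and p = 0.10 for the sum of *HXT6* and *HXT7*. The value 0.10 is the smallest p that 3 against 3 allow. This test did not match replicate numbers between strains, although some same-numbered samples of the strains deviated alike. Without WT memory 0 min replicate 1 the averaged edgeR difference was -0.67 for *HXT4* (adjusted p = 0.10) and -0.94 for *HXT6* (adjusted p = 0.052), and *HXT4* lost its call in 5 of 36 single-library omissions in all. Leaving out any of the 3 replicate numbers removed the calls of *HXT4*, *HXT6* and *HXT7*. For *HXT7*, which kept its call in every single-library omission, the edgeR adjusted p was then 0.050 to 0.19.

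**Figure D3:**
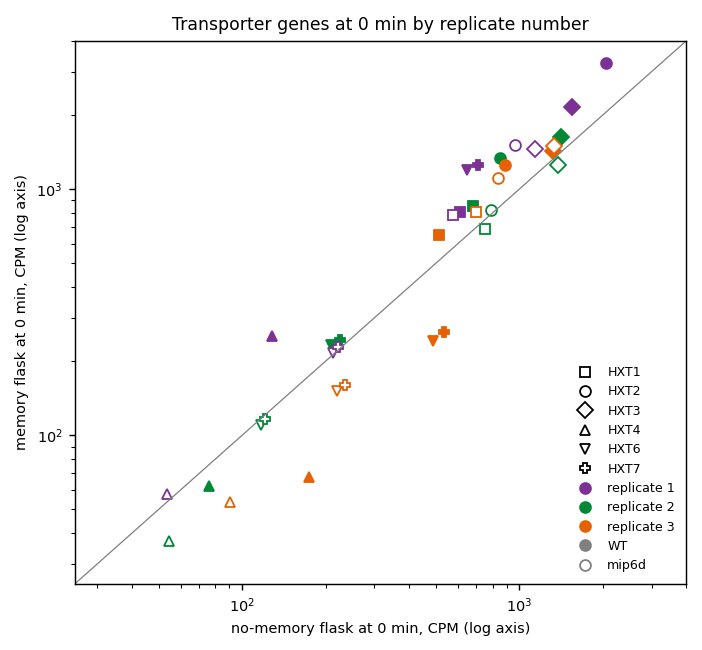
Level at 0 min in the memory flask (vertical) against the no-memory flask (horizontal) of the same strain and replicate number, in CPM on log axes, for the 6 transporter genes *HXT1* to *HXT4*, *HXT6* and *HXT7* in WT (filled) and *mip6Δ* (open). The line marks equal levels, and WT replicate 1 (purple, filled) lies high in *HXT2*, *HXT6* and *HXT7* in both flasks.

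No difference between strains in the heat response of the 9 genes passed by edgeR (0 of 9 in each of 4 comparisons, where 0% of all genes passed). For the sum of *HXT6* and *HXT7* the 15 min response was 0.94 ± 0.58 higher in *mip6Δ* without memory (edgeR adjusted p = 0.995) and 1.71 ± 0.58 higher with memory (adjusted p = 0.998). Both sizes rested on the WT replicate 1 flasks. Without the no-memory flask at 0 min the difference without memory was 0.57 for *HXT6* and 0.58 for *HXT7*, and without the memory flask at 0 min the difference with memory was 0.49 for each. The number of genes with an unadjusted p under 0.05 was 0 and 2 at 15 and 20 min without memory and 3 at each time with memory, and DESeq2 also called 0 of 9 in each. The strain effect on the memory effect was past the threshold for 0 of 9 genes at both times, and 0 of 9 had an unadjusted p under 0.05.

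Per length of coding sequence, the order of the genes turned over in the heat. In WT no-memory flasks at 0 min *HXT3* was highest with 839.2 ± 66.7 CPM per kb (SD, n = 3), followed by *HXT2* with 778.7 ± 421.4, *HXT1* with 350.7 ± 49.0, *HXT7* with 285.2 ± 142.2, *HXT6* with 261.8 ± 129.7, *HXT4* with 73.0 ± 28.5, *RGT2* with 28.6 ± 0.83, *SNF3* with 11.1 ± 1.82 and *HXT5* with 2.35 ± 0.88. In that order *HXT3* overlapped *HXT2*, *HXT1* overlapped *HXT7*, and *HXT7* overlapped *HXT6*, while the other neighbours did not overlap. At 15 min *HXT5* led with 470.8 ± 70.0 CPM per kb, above *HXT7* at 315.3 ± 66.7 without overlap, and *SNF3* was last with 8.66 ± 0.54, overlapping *HXT4*. In WT memory flasks at 15 min *HXT7* led with 237.7 ± 5.42 and *HXT5* was behind *HXT6* with 185.8 ± 51.2, overlapping it.

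The summed level of *HXT1* to *HXT7* dropped in the heat. It was 2591 ± 713 CPM per kb at 0 min in WT no-memory flasks (SD, n = 3), 1332 ± 26.6 at 15 min and 935.6 ± 138.7 at 20 min. In WT memory flasks it was 3405 ± 1653, 883.2 ± 78.2 and 599.9 ± 46.2, below the no-memory flasks at 15 and at 20 min without overlap. Without replicate 1, the mean of the other 2 samples at 0 min was 2187 CPM per kb in no-memory flasks and 2454 CPM per kb in memory flasks. In WT no-memory flasks *HXT5* made up 0.0920% of this sum before heat, 35.4% at 15 min and 36.6% at 20 min, and in memory flasks 0.101%, 20.8% and 15.9%. The low-affinity carriers *HXT1* and *HXT3* together went from 47.8% to 14.4% and back to 33.5% in no-memory flasks, and from 47.0% to 17.1% and back to 41.9% in memory flasks. In *mip6Δ* the heated no-memory flasks had an *HXT5* share of 38.3% and then 42.4%, and the memory flasks of 23.7% and then 20.3%. These sums hold *HXT5*, on which the family was chosen, and were not tested.

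**Figure D4:**
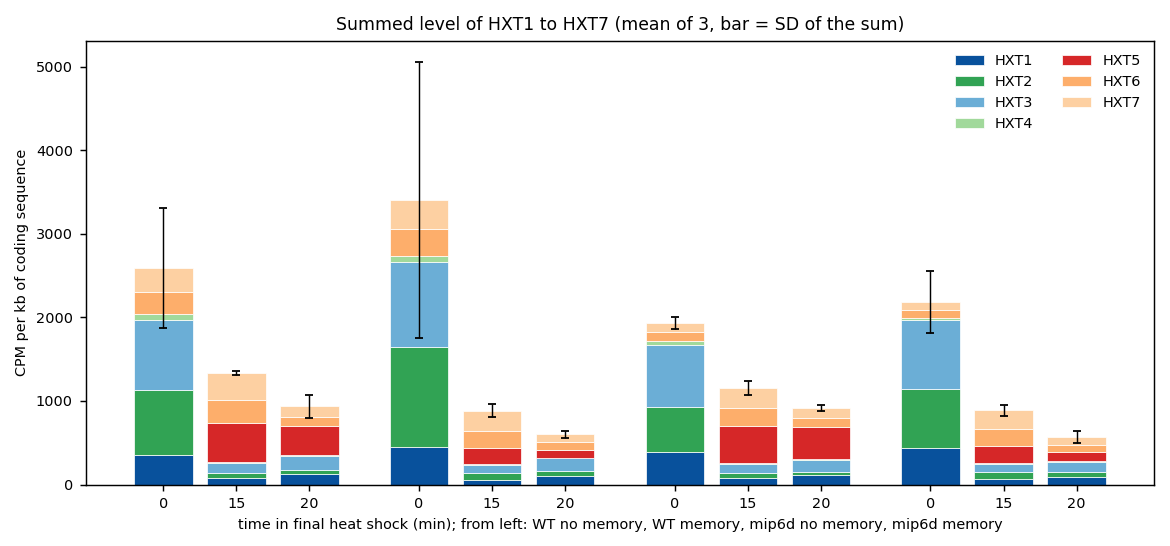
Summed level of *HXT1* to *HXT7* in CPM per kb of coding sequence in each of the 12 groups (from left: WT no memory, WT memory, *mip6Δ* no memory and *mip6Δ* memory, each at 0, 15 and 20 min), as stacked means of 3 samples with the SD of the sum as a bar. The part of *HXT5* (red) is not visible at 0 min and is 35.4% at 15 min in WT without memory against 20.8% with memory.

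Across the 36 samples *HXT5* ran opposite to *HXT1*, *HXT2*, *HXT3* and *HXT4*, with correlations of -0.907, -0.937, -0.927 and -0.856 on the log2(CPM + 1) scale, while with *HXT6* it was 0.089. The genes most like *HXT5* among genes with a mean of at least 10 CPM were *FMP45* (0.998), whose protein sits in the plasma membrane near eisosomes, *DCS2* (0.997), which encodes a stress-induced regulator of mRNA decapping, *EGO4* (0.996), *GCY1* (0.996), which encodes a glycerol dehydrogenase, and *FMP16* (0.994). *HXT1* was most like *MMP1* (0.955) and *OPT1* (0.945), which encode transporters of S-methylmethionine and of oligopeptides, and *HXT2* was most like *RIB4* (0.978) and *URA4* (0.964). *HXT3* was nearest to *CTR2* (0.968) and *SUR2* (0.961), and *HXT4* to *TLC1* (0.916) and the hexokinase gene *HXK2* (0.915). *HXT6* and *HXT7* were most like *ADR1* (0.736 and 0.723), an activator of glucose-repressed genes, and the glycogen synthase gene *GSY1* (0.673 for each). *RGT2* was nearest to the retrotransposon gene *YGR109W-B* (0.886) and *PYC1* (0.883), and *SNF3* to *MPF1* (0.885) and *FMP48* (0.872). These are descriptions over samples that share time and condition.

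Among the other hexose transporter genes, 11 were listed and 10 passed the filter, all at low counts next to the main carriers. In WT without memory at 15 min 6 of the 10 rose and 0 fell, with a median log2 change of 0.90, against 0.01 for all genes. *HXT12* rose by 1.94 ± 0.29, *HXT10* by 1.84 ± 0.31 and *HXT11* by 1.80 ± 0.18, and as close copies they can share reads with other family members. Of 10 genes that relay the signal of the sensors, 4 rose and 4 fell (median -0.15). *MTH1*, the Rgt1 corepressor degraded on glucose sensing, fell the most, with -1.98 ± 0.43 (edgeR adjusted p = 0.00017).

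Of 13 genes of glucose repression, 8 rose and 4 fell (median 0.23). *CAT8*, an activator of gluconeogenic genes, rose by 1.35 ± 0.35, while *HXK2*, which encodes the hexokinase of growth on glucose, changed by -1.73 ± 0.11 and the Mig1 relatives *MIG3* and *MIG2* by -1.38 ± 0.16 and -1.26 ± 0.19. Of 10 genes for the ubiquitin ligase Rsp5, its arrestin-like adaptors and Doa4, which act in the removal of plasma membrane transporters, 7 rose and 2 fell (median 0.56). The arrestin-like adaptor genes *ECM21* and *CSR2* rose by 1.23 ± 0.13 and 1.15 ± 0.14. With 71.9% of all genes called, these counts set none of the lists apart.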

How the data were processed

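RNA-seq reads from stranded mRNA libraries of 36 samples were used as deposited. Per the methods and the submitters' processing notes, the authors checked reads with FastQC, trimmed them with Trimmomatic, aligned them to sacCer3 with HISAT2 and obtained a raw count per gene with StringTie; how reads matching several genes were handled is not given in the sources used here. The authors' second table holds a normalised signal, made from those counts by a NOISeq filter on low counts, TMM scaling and ARSyN removal of noise, and served for an alternative test only. All columns matched a sample (columns of no sample: 0).

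Counts were fitted with edgeR 4.0.16 in R 4.3.3 (TMM, filterByExpr, robust quasi-likelihood, 12 group means), with Benjamini-Hochberg adjustment over 6038 genes and a threshold of 0.05. CPM are TMM-scaled, and log2(CPM + 1) was used for likeness. Alternatives were limma 3.58.1 on log2(normalised count + 1), DESeq2 1.42.0, other scalings and filters, a replicate block, *HXT6* and *HXT7* added, and leaving out samples; 7 averaged comparisons were added after seeing the data. The scripts were tested on simulated data. No pair of libraries within a group agreed within sampling noise, and pairs across groups were not compared.

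The members, the gene lists and their tests were chosen with earlier results of these data known. Named were all 9 members, for each list up to 3 genes per direction past the threshold and over 1 in log2 change in WT without memory at 15 min, and for likeness the 5 genes nearest to *HXT5* and the 2 nearest to each other gene. Same-numbered flasks were taken to come from divided cultures, and their deviations from group means correlated by 0.31 to 0.59 between WT memory and no-memory flasks. In *mip6Δ* the correlations were 0.44 to 0.60 at 0 min, -0.07 to 0.78 at 15 min and 0.32 to 0.59 at 20 min. At 15 min in *mip6Δ* not every flask correlated best with its own number. Between same-numbered WT and *mip6Δ* samples at 0 min the correlations were -0.03 to 0.61 without memory and 0.14 to 0.56 with memory. Apart from the replicate block, the tests did not use this matching.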

Additional observations from a re-analysis of the deposited data

Results flagged for a closer look

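Averaged over strains, a comparison added after seeing the data, the 15 min response of *HXT1* differed between memory and no-memory flasks by -0.68 (log2, edgeR quasi-likelihood test of the difference, adjusted p = 0.013). At 20 min the response of *HXT1* differed by -0.60 (edgeR adjusted p = 0.025). The 15 min response of *SNF3* differed by -0.35 (edgeR adjusted p = 0.041). Of all genes, 29.3% passed in this comparison at 15 min and 31.5% at 20 min. *HXT1* lost both calls without replicate 2 or without replicate 3. *SNF3* lost its call in 16 omissions of samples and with scaling by library size alone.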

How the results depend on the processing

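Counts of the genes called changed under these alternatives. For 20 against 15 min in WT, limma on the authors' normalised counts called 4 without and 3 with memory, DESeq2 called 3 and 3, library size alone called 1 without memory, and the replicate block called 3 and 1. In *mip6Δ* memory flasks limma and DESeq2 called 2 each. For memory against no memory in WT, library size alone called 2 at 0 min, DESeq2 called 1 at 15 min and limma called 0 at 20 min, and in *mip6Δ* library size alone called 1 at 20 min. Limma, DESeq2 and the replicate block each called 1 gene in the WT memory effect on the 15 min response. Limma called 3 in *mip6Δ* no memory at 20 against 0 min, and DESeq2 called 3 in *mip6Δ* against WT with memory at 0 min. For the mean of strains, memory against no memory, library size alone called 3 and the replicate block 1 at 0 min, limma, DESeq2, RLE, library size alone and the replicate block called 2 each at 15 min, and limma, library size alone and no filter called 1 each at 20 min. The memory effect at 15 min had 1 call with library size alone. The replicate block gave *HXT1* -0.81 (edgeR adjusted p = 0.038) in that effect in WT. Apart from the counts already named in this paragraph, the block changed none by over 1.5 times in comparisons whose numbers pair the samples. The normalised table had no row for *HXT2* or *HXT4*, which by construction removes the limma calls of both from the counts for *mip6Δ* no memory at 20 against 0 min, and that of *HXT2* from memory against no memory at 20 min in WT and in the mean of strains. The cause of the other changes was not tested.

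Leaving out samples gave these ranges of calls. WT no memory at 20 against 0 min had 5 to 8. A range of 0 to 2 held for 20 against 15 min in WT without memory, in WT with memory and in *mip6Δ* with memory, and 0 to 1 in *mip6Δ* without memory. Memory against no memory had 0 to 3 in WT at 0 min, 0 to 2 at 15 min and 0 to 3 at 20 min, in *mip6Δ* 0 to 3 at 15 and at 20 min, and for the mean of strains 0 to 3 at each time. The memory effect on the response had 0 to 1 in WT at both times, and for the mean of strains 0 to 3 at 15 min and 0 to 2 at 20 min. *mip6Δ* against WT at 0 min had 0 to 3 with memory and 0 to 3 for the mean of conditions.

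At 0 min in WT, memory against no memory reversed without WT memory replicate 1: *HXT4* ranged from -0.95 to 0.61, *HXT6* from -0.92 to 0.72 and *HXT7* from -0.95 to 0.66. For the mean of strains *HXT6* ranged from -0.56 to 0.35 and *HXT7* from -0.57 to 0.33, the lowest without that library. Of the values of single genes, 17011 stayed the same, which for tested values means the same side of the threshold. A change of sign between values that both missed the threshold was counted as the same. For *HXT5* where it was not tested, the same means a shift under 1 standard error, and 13 of its values moved further. Of the tested values, 110 lost the threshold, 112 gained it and 6 reversed with a call in either fit. Depth did not limit *HXT5*, with at least 72 counts in every sample. How reads shared by *HXT6* and *HXT7* were counted limits their separate values.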
